A study of Mus musculus with 22 samples.

Results

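Wnt ligands, the receptors and co-receptors that bind them, the R-spondins and the secreted proteins that hold Wnts back were followed across the livers of mice labelled knockout for Tcf7l2 and of their wild-type or control counterparts. The set was chosen by gene symbol: every probe whose name on the array was 1 of 45 listed symbols was a member, whatever it measured. These 45 genes were read by 65 probes, of 28034 gene names and 41174 probes on the array in all. They comprise 19 Wnt ligands, the ligand-processing gene Porcn, 10 Frizzled receptors, 2 Lrp co-receptors, 4 R-spondins with their receptor Lgr4, and 8 secreted inhibitors. More than 1 probe was present for 17 of the genes.

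Wnt proteins are lipid-modified secreted ligands. Porcn adds the lipid in the cell that makes the ligand, and on the receiving cell a Frizzled and Lrp5 or Lrp6 bind the ligand together. In the canonical branch this keeps beta-catenin from being broken down, and beta-catenin then acts on genes with transcription factors of the TCF family, of which Tcf7l2 (also called TCF4) is 1. R-spondins bind Lgr4 or its relatives and keep Frizzled receptors at the cell surface by restraining the ubiquitin ligases Znrf3 and Rnf43. Sfrp proteins and Wif1 bind Wnts outside the cell, and Dkk1 and Dkk2 block the Lrp co-receptors. In mouse liver, endothelial cells around the central vein are a known source of Wnt2, Wnt9b and Rspo3, and Wnt signalling there sets the gene programme of the pericentral hepatocytes.

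Livers came from 6 groups, 1 array for each mouse, and the labels call the mice of a group biological replicates. The newborn knockouts (Tcf7l2-/-, called TCF4KO, n = 4) and newborn wild types (Tcf7l2+/+, n = 4) were C57BL/6 pups that received 50 ul of 10% glucose under the skin and were studied 5 h after birth. The adult knockouts carried Tcf7l2loxp/loxp and SA-CreERT2 (called LTCF4KO) and the adult controls carried Tcf7l2loxp/loxp alone. All adults, controls included, had received tamoxifen at 3 weeks of age, and livers were taken 1 to 2 months later after 24 h without food (4 knockouts, 4 controls) or with food (3 knockouts, 3 controls). The labels do not say which cells the SA-CreERT2 driver acts in, nor which stretch of Tcf7l2 is lost. Each liver RNA, in Cy3, was hybridised against the same commercial mouse reference RNA, in Cy5, so a level below is a log2 ratio of liver over reference, and levels of different genes are not compared.

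On the fed arrays few liver spots cleared background. A spot is called well above background by the scanner software when it clears its local background, and this held for 22.8% to 31.2% of liver-channel spots on the 6 fed arrays, against 50.2% to 62.0% on the 8 fasted arrays, and for 50.2% to 64.4% on the 8 newborn arrays. The median liver signal before background correction was not lower on the fed arrays, at 114 to 158 against 77.5 to 104 on the fasted arrays. All 9 hepatocyte markers cleared background on all 22 arrays. The brightest Tcf7l2 probe read -1.66 ± 0.13 in newborn knockouts and -0.78 ± 0.40 in newborn wild types (SD, n = 4 each), a difference that missed the threshold (limma adjusted p = 0.0572). In adults it read 0.32 ± 0.36 in fasted knockouts against -0.03 ± 0.11 in fasted controls (SD, n = 4 each, limma adjusted p = 0.490), and -0.15 ± 0.18 in fed knockouts against -0.36 ± 0.29 in fed controls (SD, n = 3 each, limma adjusted p = 0.999). A probe outside the lost stretch checks nothing, so adult genotypes below are those of the labels.

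More of the 45 genes were measurable in newborn and fasted liver than in fed liver. At least 1 probe was well above background on every array for 26 of the 45 genes in newborn knockouts and for 20 in newborn wild types. In fasted adults this held for 23 genes in knockouts and 22 in controls, and in fed adults for 5 in knockouts and 5 in controls. Members were dimmer than the array as a whole: of their 65 probes, 43.1% in newborn knockouts and 33.8% in newborn wild types were well above background on every array, against 53.6% and 48.5% of all probes in the same 2 groups. For fasted knockouts and fasted controls these shares were 41.5% and 38.5% of member probes, beside 52.2% and 49.0% of all probes. For fed knockouts and fed controls they were 7.69% in each, beside 22.2% and 22.5%.

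**Figure D1:**
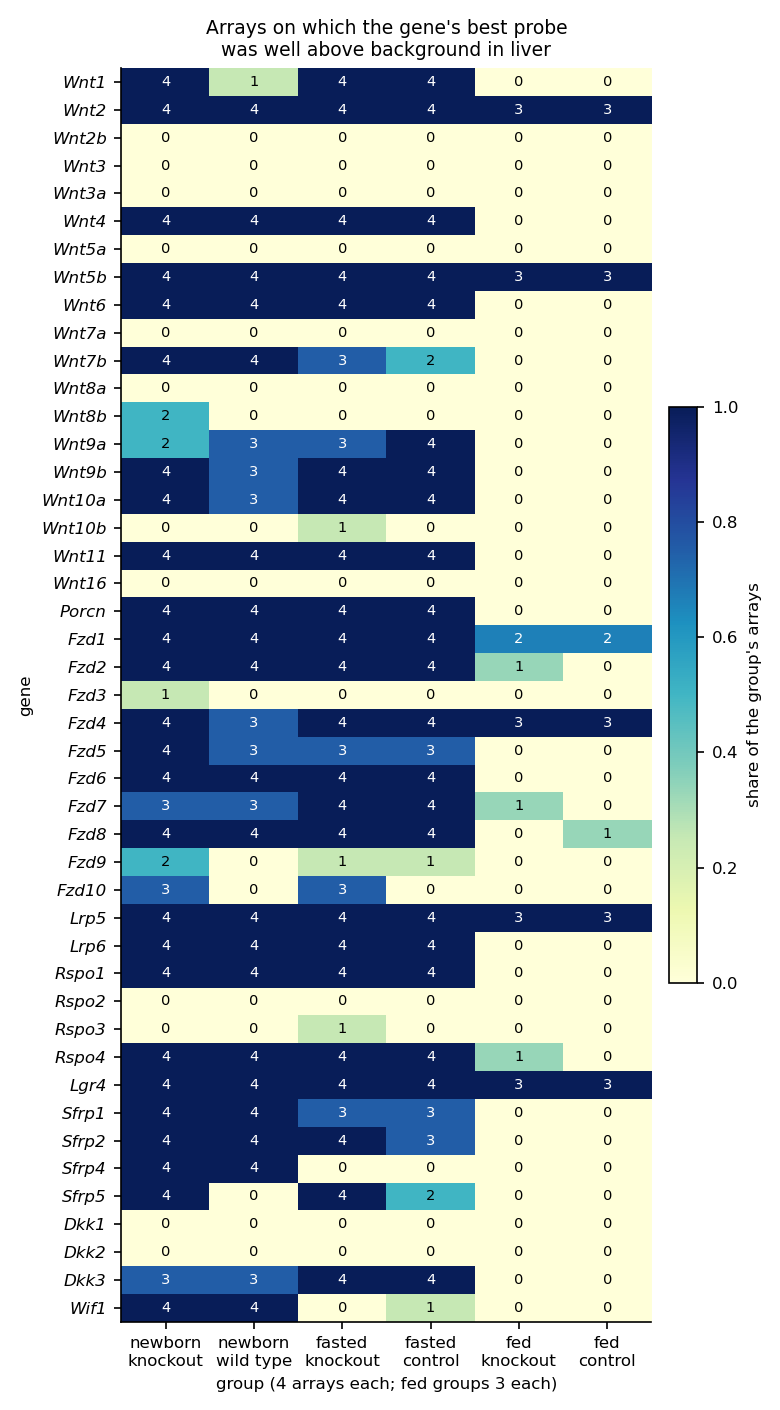
Number of arrays of each group (columns, 4 arrays each and 3 in the fed groups) on which the best probe of each of the 45 member genes (down the page) was well above background in the liver channel; the colour gives the share of the group's arrays. Only 5 genes fill both fed columns, and 10 genes are at 0 in every column.

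Among the ligands, Wnt2, Wnt4, Wnt5b, Wnt6 and Wnt11 were well above background on every newborn and every fasted array. On all fed arrays this remained so for Wnt2 and Wnt5b only. Wnt9b, a ligand of the pericentral endothelium, was well above background on 4 of 4 newborn knockout and 3 of 4 newborn wild-type arrays, on all 8 fasted arrays and on none of the 6 fed arrays. Wnt2b, Wnt3, Wnt3a, Wnt5a, Wnt7a, Wnt8a and Wnt16 were well above background on none of the 22 arrays, and neither were Rspo2, Dkk1 and Dkk2. Wnt8b, Wnt10b, Fzd3, Fzd9 and Rspo3 cleared background on some arrays but on too few to be tested.

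Of the receptors, Fzd1, Fzd2, Fzd6, Fzd8, Lrp5, Lrp6 and Lgr4 were well above background on every newborn and fasted array, and Fzd4, Lrp5 and Lgr4 on every fed array. Altogether 11 genes cleared background on all fasted and no fed arrays: the ligands Wnt1, Wnt4, Wnt6, Wnt9b, Wnt10a and Wnt11, then Porcn, Fzd6, Lrp6, Rspo1 and Dkk3. Sfrp4 and Wif1, both of which bind Wnt proteins, went the other way with age. Sfrp4 was well above background on all 8 newborn and no adult arrays, and Wif1 on all 8 newborn arrays and on 1 adult array, a fasted control. In newborns, 6 genes cleared background on every knockout array but not on every wild-type array (Wnt1, Wnt9b, Wnt10a, Fzd4, Fzd5 and Sfrp5) and 0 did the reverse. Without newborn wild type 1 these counts were 2 (Wnt1 and Sfrp5) and 3 (Wnt9a, Fzd7 and Dkk3), a repeat added after seeing the data. The share of all liver spots well above background was 55.7% to 64.4% on knockout and 50.2% to 59.4% on wild-type arrays.

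The R-spondins show how far detection rests on the probe. Rspo3, the R-spondin of the central vein, was well above background with 1 probe on 1 of 22 arrays, a fasted knockout, and with its other probe on none. Rspo4 was well above background on 17 arrays with 1 probe and on none with the other. Lgr4 had 4 probes, well above background on 22, 20, 15 and 0 arrays. The 60-base probes below are shown because their deposited positions are split across the genome, as a probe over an exon junction would be; they are given 5′ to 3′, with probe name and mm9 position.
Rspo3 probe A_52_P337760, chr10:29224509-29226228, minus strand: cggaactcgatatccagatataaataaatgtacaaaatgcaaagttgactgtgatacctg
Rspo4 probe A_52_P187167, chr2:151695643-151698787, plus strand: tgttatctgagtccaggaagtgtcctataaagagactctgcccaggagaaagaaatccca
Lgr4 probe A_52_P278566, chr2:109829910-109831296, plus strand: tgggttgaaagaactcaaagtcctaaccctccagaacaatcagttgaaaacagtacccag
The Rspo4 junction probe was also well above background on 13 arrays in the reference channel, and the Rspo3 one on 0.

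Levels of several members differed widely between the ages, which were hybridised on separate slides and are set side by side as a description without a test. Wnt4 read 1.87 ± 0.23 in newborn knockouts and 1.79 ± 0.27 in newborn wild types, and in fasted adults -1.59 ± 0.14 in knockouts and -1.54 ± 0.23 in controls (SD, n = 4 each). Wif1 read 2.64 ± 0.22 in newborn knockouts and 2.88 ± 0.60 in newborn wild types, while no adult array exceeded 0.84. Wnt2, Wnt5b and Lgr4 had the opposite order. Wnt2 read 3.09 ± 0.49 in newborn knockouts and 3.61 ± 0.38 in newborn wild types, and in fasted adults 5.19 ± 0.24 in knockouts and 5.13 ± 0.25 in controls (SD, n = 4 each). For Lgr4 the same 4 means were 1.24 ± 0.41, 1.11 ± 0.16, 3.09 ± 0.08 and 2.73 ± 0.23. With the probes used, no newborn array overlapped a fasted array in any of these genes. A second Lgr4 probe had the same order, at 0.43 to 0.78 in newborns and 1.66 to 2.08 in fasted adults. The Lgr4 junction probe shown above went the other way, at 0.28 to 1.44 in newborns and 0.07 to 0.48 in fasted adults.

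**Figure D2:**
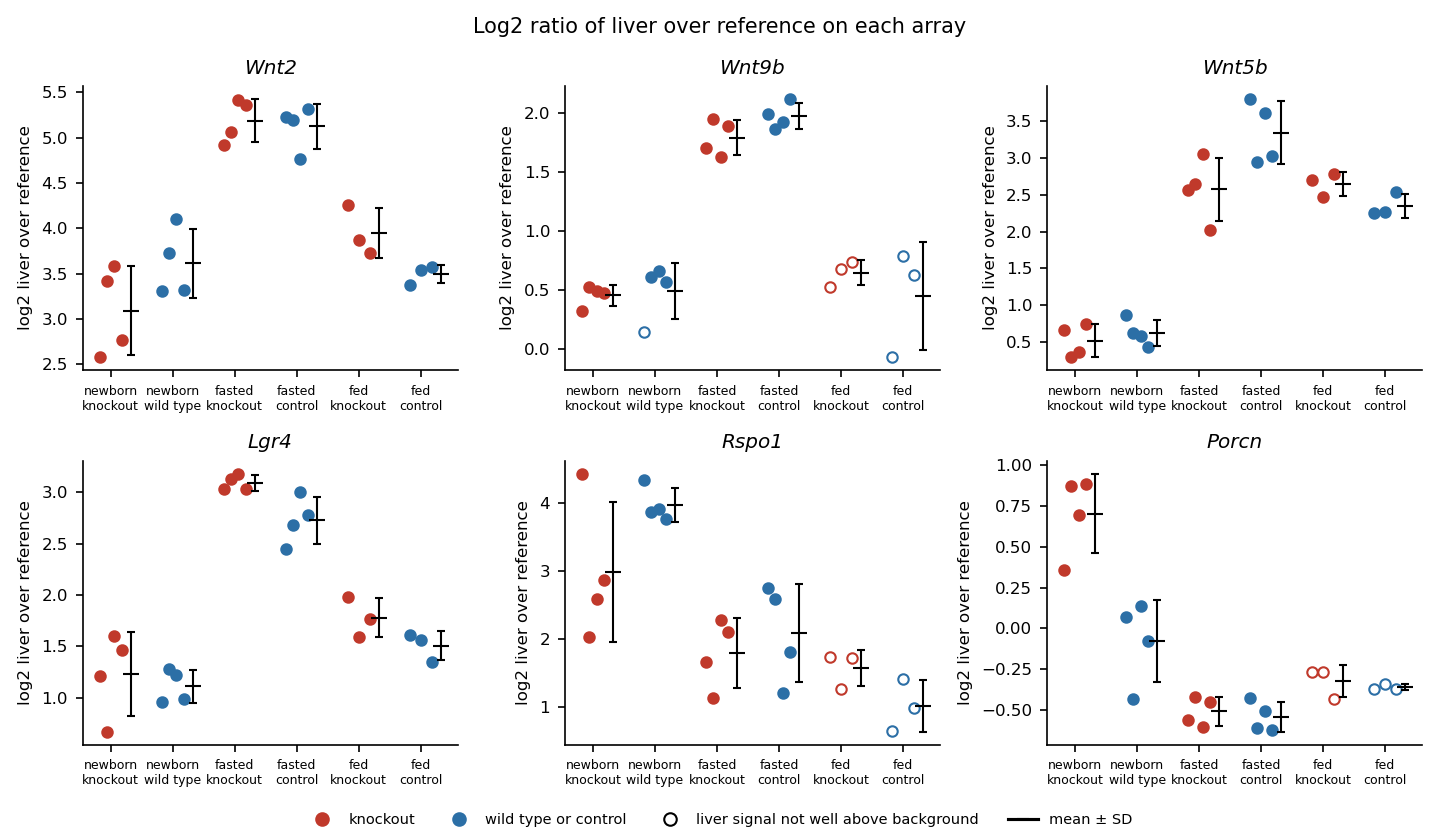
Log2 ratio of liver over reference on each array (vertical axis, own scale for each gene) for 6 members in the 6 groups; filled points are well above background in liver, open points are not, and bars are the mean ± SD of the group. Fasted livers lie above fed livers for Wnt2, Wnt9b and Lgr4, newborn knockouts above newborn wild types for Porcn, and the Rspo1 values of newborn knockouts spread from 2.03 to 4.43.

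In newborn livers no member passed the threshold of an adjusted p of 0.05 for a knockout change, 0 of 29 tested, where 1.46% of all genes tested did (limma, Benjamini-Hochberg over all genes). At an unadjusted p under 0.05 there were 6 members, against 13.4% of all genes. The groups did not overlap for 2 members, Porcn and Wnt1, against 9.51% of all genes. The median change of the members was -0.04, beside -0.01 over all genes. Knockout and wild-type newborns were hybridised on 1 slide each, so slide and genotype cannot be told apart in every newborn comparison.

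Porcn, whose product is the acyltransferase that lipidates Wnts, came closest. Its probe lies at chrX:7771223-7771282 on the minus strand (mm9). Porcn read 0.36, 0.87, 0.70 and 0.89 in the 4 knockouts and 0.07, -0.43, 0.14 and -0.07 in the 4 wild types. Every knockout lay above every wild type, with a difference of 0.78 ± 0.16 (SE, limma adjusted p = 0.0549). The adjusted p was 0.0478 without wild type 1 and 0.0496 without knockout 1. Over all 8 fits that left out 1 array it ran from 0.0478 to 0.156. Among the ligands Wnt6 had the smallest p. It read -0.24, -0.89, -0.65 and -0.19 in knockouts and -0.84, -1.29, -1.22 and -1.22 in wild types, so that 1 knockout lay within the wild-type range (difference 0.65 ± 0.18 SE, limma adjusted p = 0.115). A second Wnt6 probe, well above background on 1 array of each newborn group, differed by 0.06 (limma adjusted p = 0.963 over all probes, unfiltered). Wnt1 was well above background on 4 knockout arrays and 1 wild-type array, and read 0.26 to 0.66 in knockouts, all above the -0.06 to 0.10 of wild types (limma adjusted p = 0.142).

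Negative differences with an unadjusted p under 0.05 were those of Lrp6, Fzd1 and Rspo1. Lrp6, a co-receptor, read 0.74, 0.75, 0.90 and 1.01 in knockouts and 1.28, 0.96, 1.15 and 1.36 in wild types, which overlap in 1 knockout (difference -0.34 ± 0.12 SE, limma adjusted p = 0.250). Its other probe, well above background on 3 arrays of each newborn group, differed by -0.02 (limma adjusted p = 0.967). The receptor gene Fzd1 differed by -0.48 ± 0.21 (SE, limma adjusted p = 0.366). Rspo1 read 4.43, 2.03, 2.59 and 2.87 in knockouts and 4.34, 3.87, 3.92 and 3.76 in wild types. Here 3 knockouts lay below all wild types and knockout 1 lay above them all (difference -0.99 ± 0.43 SE, limma adjusted p = 0.358). Without knockout 1 the Rspo1 difference was -1.47 (limma adjusted p = 0.0353). Over all 8 fits that left out 1 array its limma adjusted p ran from 0.0353 to 0.580. Wnt2 differed by -0.52 ± 0.26 (SE, limma adjusted p = 0.441) and Wnt9b by -0.04 ± 0.13 (SE, limma adjusted p = 0.952), which turned to 0.35 with the liver channel alone. Of the inhibitors, the smallest p was that of Sfrp1, a soluble Frizzled-like protein, at -0.31 ± 0.22 (SE, limma adjusted p = 0.637). Sfrp5 cleared background on 4 knockout and 0 wild-type arrays, so it entered the newborn test through the knockouts alone. Its liver signal was at least 1.47-fold higher in knockouts, but the reference channel, with the same RNA on every array, was higher too. On the dye-normalized scale the liver channel differed by 0.57 and the reference channel by 0.63. The Sfrp5 log2 ratio differed by -0.05 (limma adjusted p = 0.889). Markers of other liver cells were counted beside these values: 2 of 10 Kupffer cell markers were lower in knockouts (list median -0.63), and the median of 14 stellate cell and fibroblast markers was -0.46 with 0 passed. Array means of the Kupffer markers ranged from 3.01 to 3.55 in knockouts and from 3.73 to 3.89 in wild types, those of the stellate and fibroblast markers from 0.26 to 0.69 in knockouts and from 0.40 to 1.35 in wild types; their part in the result was not tested.

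In fasted adults no member passed for genotype either, 0 of 28 tested, where 0.5% of all genes did. At an unadjusted p under 0.05 there were 3 members, against 11.2% of all genes, and the groups did not overlap for 1, Lgr4, against 6.48%. The median member change was -0.01, beside 0.01 over all genes. Wnt5b, a ligand mostly of the beta-catenin-independent branch, read 2.56, 2.64, 3.06 and 2.03 in fasted knockouts and 3.80, 2.94, 3.60 and 3.03 in fasted controls. Knockout 3 lay within the control range and the other knockouts below it (difference -0.77 ± 0.22 SE, limma adjusted p = 0.186). A second Wnt5b probe gave a difference of -0.74 (limma adjusted p = 0.416), and the first turned to 0.86 when outlying local backgrounds were kept as deposited. Lgr4 read 3.03, 3.13, 3.18 and 3.03 in fasted knockouts and 2.45, 2.68, 3.00 and 2.78 in fasted controls. All knockouts lay above all controls, by 0.36 ± 0.12 (SE, limma adjusted p = 0.283), and by 0.51 within 1 slide and 0.21 within the other. With outlying local backgrounds kept the Lgr4 difference was 1.33 (limma adjusted p = 0.109).

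Fzd7, a Frizzled receptor, read -1.57, -0.96, -0.04 and -0.63 in fasted knockouts and -0.28, -0.37, -0.08 and -0.14 in fasted controls. The knockouts spread on both sides of the controls (difference -0.58 ± 0.27 SE, limma adjusted p = 0.441). The pericentral ligands Wnt2 and Wnt9b did not pass for genotype in fasted livers. Wnt2 read 4.91, 5.06, 5.41 and 5.37 in knockouts and 5.23, 5.19, 4.76 and 5.32 in controls (difference 0.06 ± 0.16 SE, limma adjusted p = 0.942, and -0.22 within 1 slide), and the difference was 2.56 with outlying local backgrounds kept (limma adjusted p = 0.102). Wnt9b read 1.70, 1.94, 1.63 and 1.89 in knockouts and 1.99, 1.86, 1.92 and 2.12 in controls (difference -0.18 ± 0.16 SE, limma adjusted p = 0.740), and the difference was 0.84 with outlying local backgrounds kept. Porcn differed by 0.03, Lrp6 by 0.11 and Sfrp2, a secreted Frizzled-related protein, by 0.13, with limma adjusted p-values of 0.942, 0.740 and 0.924, and all 3 turned below 0 with outlying local backgrounds kept. Fzd10 cleared background on 3 knockout and 0 control arrays in fasted livers, and on no fed array. It thus entered the adult test through the fasted knockouts alone. In fasted livers its liver signal was at least 1.15-fold higher in knockouts (limma adjusted p = 0.682 for the ratio). On the dye-normalized scale the Fzd10 liver channel differed by 0.37 and the reference channel by 0.11. The other Fzd10 probe was well above background on no array.

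In fed adults 0 of 28 members passed for genotype, where 0.221% of all genes did. There were 2 members at an unadjusted p under 0.05, against 7.14% of all genes, and 4 whose groups did not overlap (Wnt1, Wnt2, Fzd7 and Sfrp5), against 11.2%. Of those 4, Wnt2 was well above background on all fed arrays and the probes used for the others on none. A second Fzd7 probe, above background on 1 fed knockout array, differed by 0.40 where the one used differed by -0.45. Wnt2 read 4.26, 3.87 and 3.73 in fed knockouts and 3.38, 3.54 and 3.57 in fed controls, with every knockout above every control (difference 0.46 ± 0.18 SE, limma adjusted p = 0.601). Lgr4 read 1.98, 1.60 and 1.77 in fed knockouts and 1.61, 1.56 and 1.35 in fed controls, overlapping in 1 knockout (difference 0.27 ± 0.14 SE, limma adjusted p = 0.805). The smallest p was that of Fzd5, a Frizzled receptor that was not well above background on any fed array, with a limma adjusted p of 0.455. It read 0.33, 0.26 and 1.11 in knockouts and 1.08, 1.17 and 1.15 in controls, and without knockout 3 the adjusted p was 0.0132. Over all 6 fits that left out 1 array the Fzd5 adjusted p ran from 0.0132 to 0.885. A second Fzd5 probe, well above background on no adult array, read -0.28, 0.13 and -0.61 in knockouts and -0.53, -0.39 and -0.53 in controls. Wnt9b, Porcn, Lrp6 and Sfrp5 were well above background on no fed array in either genotype, and their limma adjusted p-values lay between 0.749 and 0.999. Among fed livers 9 of 9 hepatocyte, 10 of 10 Kupffer and 16 of 17 endothelial markers were above 0 in knockouts over controls (medians 0.51, 0.57 and 0.28) with 0 passed, and their part in the values above was not tested.

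Whether the knockout change differed between fasted and fed livers was tested as an interaction. No member and no other gene passed (0 of 28, and 0% of all genes), and 2 members had an unadjusted p under 0.05, against 6.59% of all genes. These were Wnt5b, with a knockout change lower by 1.07 ± 0.34 log2 units in fasted than in fed livers (limma adjusted p = 0.667), and Fzd5 (0.69 ± 0.25 SE, limma adjusted p = 0.697). For Wnt2 the interaction was -0.39, for Wnt9b -0.38, for Rspo1 -0.84 and for Sfrp5 -0.28, with limma adjusted p-values from 0.797 to 0.801, and these 4 and that of Wnt5b turned above 0 with outlying local backgrounds kept. The residual degrees of freedom were 6 in newborns and 10 in adults, and the number of arrays limits the precision of each comparison.

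**Figure D3:**
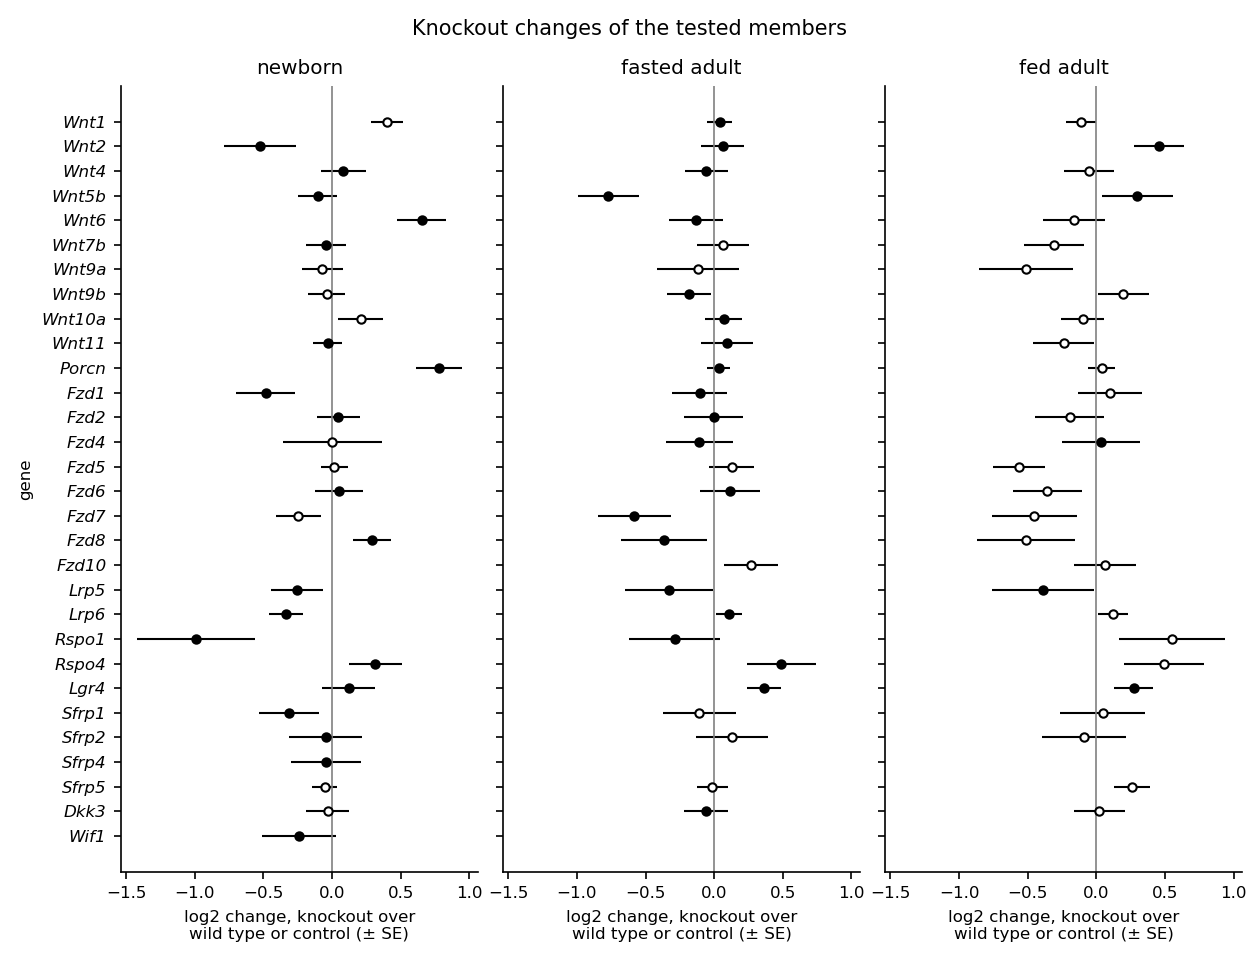
Difference in log2 ratio, knockout over wild type or control, for each tested member (down the page) in newborn, fasted and fed livers, with its standard error; filled points are well above background on every array of both groups and open points are not. No member passed the threshold, and most points of the fed panel are open.

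With the main settings, members passed in the comparisons of fasted with fed livers and in no other. Each slide held fasted or fed livers alone, so slide and feeding cannot be fully told apart; with slide as a random block 7 members passed in knockouts and 12 in controls. In controls, 13 of 28 members (46.4%) differed between fasted and fed livers, where 36.9% of all genes did. Of these, 7 were higher in fasted livers, against 20.2% of all genes, and 6 were lower, against 16.7%. The groups did not overlap for 14 members, against 43.6% of all genes. In knockouts 9 of 28 members (32.1%) passed, where 35.9% of all genes did, with 5 higher, against 18.8%, and 4 lower, against 17.1%. The groups did not overlap for 12 members there, against 42.6%. All members that passed, other than Wnt2, Wnt5b and Lgr4, were well above background on no fed array. They entered the test through the fasted arrays alone, so the counts of higher and lower members depend on that filter. The higher and lower counts moved with the scaling: with the processed signals of the scanner software 12 members were higher and 1 lower in fasted controls, and 12 higher and 0 lower in fasted knockouts, where the median of all genes was 0.41 in both genotypes, against 0.04 in knockouts and 0.05 in controls with the scaling used. With outlying local backgrounds kept, 2 were higher and 3 lower in controls and 1 higher and 2 lower in knockouts. For these scalings and the slide block the share of all genes that passed is not given, so these counts describe the members alone.

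Lgr4, the R-spondin receptor, was higher in fasted than in fed livers in both genotypes. Its means were 3.09 ± 0.08 in fasted knockouts (n = 4) and 1.78 ± 0.19 in fed knockouts (SD, n = 3), and 2.73 ± 0.23 in fasted controls (n = 4) and 1.51 ± 0.14 in fed controls (SD, n = 3). No fasted array reached down to a fed one. The difference was 1.31 ± 0.13 in knockouts (SE, limma adjusted p = 2.64e-05) and 1.22 ± 0.13 in controls (SE, limma adjusted p = 4.29e-05), or 2.48-fold and 2.33-fold. It lay in the liver channel, which differed by 1.32 in knockouts and 1.16 in controls, and not in the reference channel, at 0.01 and -0.06. With the liver channel alone it was 1.20 in knockouts and 0.94 in controls and still passed. With outlying local backgrounds kept it did not, at 1.33 (limma adjusted p = 0.0654) in knockouts and 0.26 (limma adjusted p = 0.729) in controls.

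The 4 Lgr4 probes did not read alike. The values above are from the brightest, at chr2:109854007-109854066 on the plus strand (mm9). A second probe, chr2:109852832-109852891, was also higher in fasted livers, by 0.61 in knockouts (limma adjusted p = 0.00106) and 0.82 in controls (limma adjusted p = 0.000144). The junction probe shown above gave 0.24 in knockouts and 0.17 in controls, with limma adjusted p-values of 0.211 and 0.365, and was well above background on no fed array. The fourth probe, which was designed on another transcript record, was well above background on none of the 22 arrays.

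**Figure D4:**
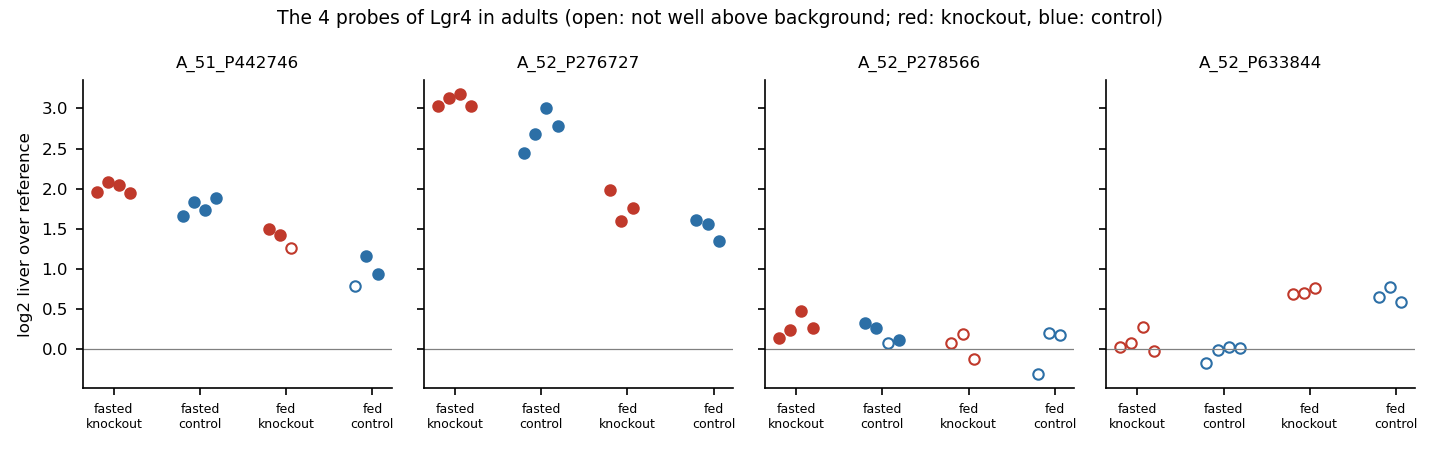
Log2 ratio of liver over reference for the 4 probes of Lgr4 (panels, by probe name) on each adult array; red points are knockouts and blue points controls, and open points are not well above background in liver. The first and second panels show fasted above fed livers in both genotypes, and the fourth panel has open points only.

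Wnt2 was higher in the ratio in fasted livers of both genotypes, but in part through the reference channel (probe at chr6:17939284-17939343, minus strand, mm9). Its means were 5.19 ± 0.24 in fasted knockouts (n = 4) and 3.95 ± 0.28 in fed knockouts (SD, n = 3), and 5.13 ± 0.25 in fasted controls (n = 4) and 3.50 ± 0.10 in fed controls (SD, n = 3), without overlap. The difference was 1.24 ± 0.17 in knockouts (SE, limma adjusted p = 0.000182) and 1.63 ± 0.17 in controls (SE, limma adjusted p = 2.89e-05), while in controls it turned to -0.01 with the liver channel alone and to -0.86 with outlying local backgrounds kept. In knockouts the liver channel alone gave 0.18 (limma adjusted p = 0.337). On the dye-normalized scale the liver channel differed by 0.78 in knockouts and 0.75 in controls, and the reference channel, which carries the same RNA on every array, by -0.45 and -0.88.

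Wnt5b passed in controls only, and there its difference lay in the reference channel. Fasted knockouts averaged 2.57 ± 0.42 (n = 4) and fed knockouts 2.65 ± 0.16 (SD, n = 3), a difference of -0.08 ± 0.24 (SE, limma adjusted p = 0.826). Fasted controls averaged 3.34 ± 0.42 (n = 4) and fed controls 2.35 ± 0.16 (SD, n = 3), a difference of 0.99 ± 0.24 (SE, limma adjusted p = 0.00640) that turned to -0.42 with the liver channel alone and to -0.64 with outlying local backgrounds kept. In controls the liver channel differed by -0.02 and the reference channel by -1.02. Its second probe differed by 0.49 in controls and did not pass (limma adjusted p = 0.261). The control and knockout differences were not shown to differ from each other, as the interaction above gives.

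Wnt2 and Lgr4 in both genotypes and Wnt5b in controls were the fasting calls for which every fasted and fed array was well above background. The other members that were higher in fasted livers were not well above background on any fed array, so their fed levels are bounds. Wnt9b averaged 1.79 ± 0.15 in fasted knockouts (n = 4) and 0.64 ± 0.11 in fed knockouts (SD, n = 3), and its liver signal was at least 1.02-fold higher (limma adjusted p = 0.000339). In controls the Wnt9b means were 1.97 ± 0.11 fasted (n = 4) and 0.45 ± 0.46 fed (SD, n = 3), with a limma adjusted p of 4.83e-05 and no fold, since the bound was under 1. With the liver channel alone Wnt9b passed in neither genotype (limma adjusted p = 0.267 in knockouts and 0.145 in controls).

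Wnt10a, a canonical ligand, read -3.15 to -2.87 in fasted knockouts and -4.10 to -3.50 in fed knockouts, and -3.16 to -3.05 in fasted controls and -3.90 to -3.43 in fed controls. The groups did not overlap in either genotype, and the liver signal was at least 1.42-fold higher in fasted knockouts (limma adjusted p = 0.00138) and at least 1.47-fold higher in fasted controls (limma adjusted p = 0.00558). Wnt10a passed in controls under each of the 4 other scalings, and in knockouts under all but that with outlying local backgrounds kept (limma adjusted p = 0.0990). Among all 9 alternative settings, scalings included, 1 lost the Wnt10a call in controls (limma adjusted p = 0.0516). Sfrp5 averaged 0.52 ± 0.08 in fasted knockouts (n = 4) and -0.12 ± 0.21 in fed knockouts (SD, n = 3, limma adjusted p = 0.00152), and 0.53 ± 0.19 in fasted controls (n = 4) and -0.39 ± 0.04 in fed controls (SD, n = 3, limma adjusted p = 0.000143). For Sfrp5 the liver channel differed by 0.28 in knockouts and 0.13 in controls and the reference channel by -0.36 and -0.79, and with the liver channel alone it passed in neither (limma adjusted p = 0.0984 and 0.0698). Rspo1 passed in controls alone, at 2.08 ± 0.72 fasted (n = 4) and 1.02 ± 0.38 fed (SD, n = 3, limma adjusted p = 0.0329), with overlapping ranges, and turned to a difference of -0.28 with outlying local backgrounds kept. It did not pass without fasted control 1 or 2 or without fed control 1 or 3 (limma adjusted p from 0.0786 to 0.126). In knockouts Rspo1 averaged 1.80 ± 0.51 fasted (n = 4) and 1.57 ± 0.26 fed (SD, n = 3, limma adjusted p = 0.650).

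The members whose ratio was lower in fasted livers were Wnt4, Wnt11, Fzd6 and Sfrp2 in both genotypes, and Wnt7b and Fzd5 in controls, though all but Wnt7b turned above 0 under some other scaling. None of the 6 was well above background on a fed array, so no fold is given for them. On fasted arrays Wnt4, Wnt11 and Fzd6 were so on all 8, Sfrp2 on 7, Fzd5 on 6 and Wnt7b on 5. Detection thus ran against the direction of the ratio, and a lower level in fasted livers is not shown. Wnt11, a ligand that acts largely without beta-catenin, read 0.45, 0.06, 0.19 and 0.13 in fasted knockouts and 1.32, 0.56 and 1.66 in fed knockouts (limma adjusted p = 0.00331). In controls it read 0.28, 0.11, 0.03 and 0.04 fasted and 1.27, 1.65 and 1.33 fed (limma adjusted p = 0.000488), and no fasted array reached a fed one in either genotype. With processed signals the direction of Wnt11 turned in both genotypes, to 0.40 in knockouts and 0.20 in controls, as did that of Wnt4 and Fzd6 in both and of Fzd5 in controls. The second Fzd5 probe went the other way, at -0.18 to 0.22 in fasted controls and -0.53 to -0.39 in fed controls. With the liver channel alone Fzd6 and Sfrp2 turned in both genotypes, to 0.33 and 0.58 in knockouts and 0.16 and 0.39 in controls. Fzd6 and Sfrp2 had the larger part of their difference in the reference channel, at 0.54 and 1.07 in knockouts and 0.87 and 1.01 in controls. Wnt4 lost its call when 1 array was left out, in 5 of 7 cases in each genotype, Wnt7b in 4 of 7 in controls and Fzd6 in 5 of 7 in knockouts.

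**Figure D5:**
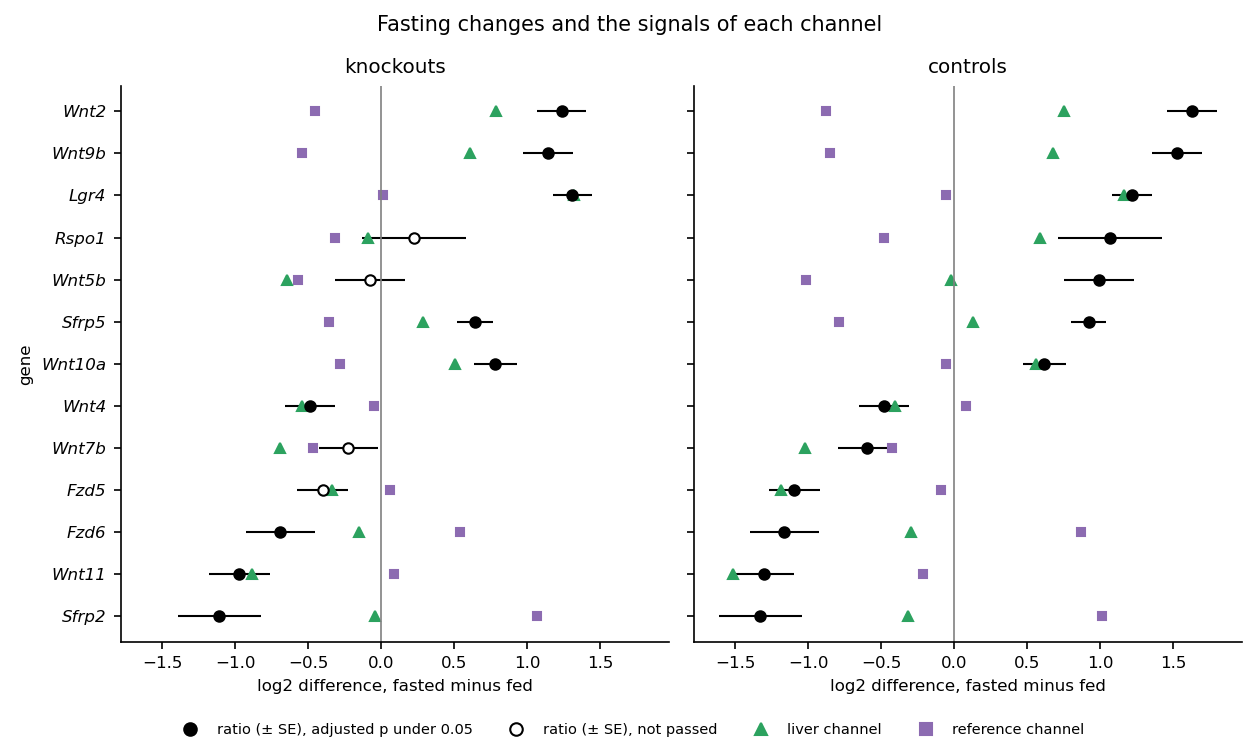
Difference in log2 ratio, fasted minus fed, with its standard error (circles, filled where the adjusted p was under 0.05), in knockouts and controls for the 13 members that passed in controls, with the difference in the liver channel (triangles) and in the reference channel (squares). For Lgr4 and Wnt10a in controls the triangle lies on the circle, while for Wnt5b in controls the square carries the difference. Triangles and squares are on the dye-normalized scale. With the liver channel alone, a separate normalization that is not drawn, Wnt2, Wnt4, Wnt5b, Fzd6 and Sfrp2 changed sign in controls.

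The co-receptors did not pass with the probe used, and for Lrp6, Fzd7 and Fzd8 another probe did. Lrp5 averaged -0.56 ± 0.20 in fasted knockouts (n = 4) and 0.29 ± 0.46 in fed knockouts (SD, n = 3, limma adjusted p = 0.0738), and -0.23 ± 0.75 in fasted controls (n = 4) and 0.68 ± 0.42 in fed controls (SD, n = 3, limma adjusted p = 0.0574). Lrp5 passed without fed knockout 3 in knockouts (limma adjusted p = 0.0447) and without fasted control 2 in controls (limma adjusted p = 0.0280). Over the 7 fits that left out 1 array in each genotype, the adjusted p reached 0.221 in knockouts and 0.215 in controls. The brightest adult Lrp6 probe differed by -0.14 in knockouts and -0.12 in controls, whereas the probe used for newborns was higher in fasted livers by 0.90 in knockouts (limma adjusted p = 0.00213) and 1.16 in controls (limma adjusted p = 0.000360). That probe was well above background on no fed array. The second Fzd7 probe, well above background on 4 of 22 arrays, differed by -1.67 in knockouts (limma adjusted p = 0.00594) and -1.13 in controls (limma adjusted p = 0.0380), where the one used gave -0.26 and -0.13. Those arrays were 3 fasted controls and 1 fed knockout. In controls detection thus ran against the direction of the ratio, and a lower level in fasted controls is not shown. The second Fzd8 probe, well above background on 5 arrays, was higher in fasted controls by 0.74 (limma adjusted p = 0.00118) and differed by 0.33 in knockouts (limma adjusted p = 0.0783), where the one used gave -0.11 in knockouts and -0.26 in controls. All 5 of those arrays were fasted, so this second Fzd8 probe passed the filter through the fasted arrays alone. Porcn differed by -0.19 in knockouts and -0.18 in controls (limma adjusted p = 0.129 and 0.137), and was above 0 in both with processed signals or the liver channel alone.

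Cell type markers differed between fasted and fed livers as well. Of 9 hepatocyte markers 8 were lower in fasted knockouts and 7 in fasted controls, with list medians of -1.75 and -1.13. Of 17 liver endothelial markers 9 were higher and 4 lower in fasted knockouts, and 8 higher and 1 lower in fasted controls. Array means of the endothelial markers were 3.20 to 3.65 in fasted knockouts against 2.77 to 3.09 in fed knockouts, and 3.38 to 3.47 in fasted controls against 2.59 to 2.74 in fed controls. Those of the hepatocyte markers were 5.57 to 5.75 against 7.05 to 7.36 in knockouts and 5.46 to 5.81 against 6.45 to 6.85 in controls. The endothelial markers Tek, Bmp2, Selp, Thbd and Pecam1 were well above background on no fed array, and Lyve1 on none of the fed knockouts. Of 10 Kupffer markers 5 were higher and 1 lower in fasted knockouts, and 5 higher and 0 lower in fasted controls, and of 15 stellate and fibroblast markers 2 were higher and 2 lower in fasted knockouts, and 6 higher and 2 lower in fasted controls. Their part in the changes of the members was not tested, and in whole liver fewer cells of a type and less RNA per cell cannot be told apart. Of 7 cholangiocyte, 5 mesothelial, 4 erythroid and 6 pancreas and fat markers tested in adults, 3 erythroid markers passed in fasted over fed controls (1 higher, 2 lower), 2 erythroid markers were lower in fasted knockouts, and at most 1 marker of each other list passed.

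Other genes of the pathway were counted from lists for comparison. In fasted livers 2 of 16 other surface and secreted genes were lower in knockouts and 0 higher, and 0 of 25 intracellular genes passed. Lgr5, an R-spondin receptor and a known Wnt target of pericentral hepatocytes, averaged -0.05 ± 0.11 in fasted knockouts and 3.10 ± 0.96 in fasted controls (SD, n = 4 each). It was well above background on 0 of 4 knockout and 4 of 4 control arrays, and was at least 5.72-fold lower in knockouts (limma adjusted p = 0.000476). Notum, a secreted enzyme that removes the Wnt lipid, averaged 1.17 ± 0.44 in fasted knockouts and 3.01 ± 0.54 in fasted controls (SD, n = 4 each, difference -1.84 ± 0.30 SE, limma adjusted p = 0.0108). In newborns 0 of 13 surface and 0 of 26 intracellular genes passed, and in fed adults 0 of 16 and 0 of 25. Between fasted and fed livers, 3 surface genes were higher and 4 lower of 16 in knockouts, and 6 higher and 4 lower in controls, beside 7 higher and 9 lower of 25 intracellular genes in knockouts and 6 higher and 8 lower in controls. Znrf3, the ubiquitin ligase that Lgr4 and R-spondins restrain, was at least 1.45-fold higher in fasted knockouts (limma adjusted p = 0.0166) and at least 1.99-fold higher in fasted controls (limma adjusted p = 7.61e-05). Znrf3 was well above background on no fed array, so it entered the adult test through the fasted arrays alone.

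Promoter windows were searched for the letters to which TCF factors are known to bind. The 250 bases before each RefSeq gene start (GRCm38.p6) were read for CTTTGAA or CTTTGAT on either strand, and 7.48% of 32851 windows held a match. Of the 45 members 29 had a window, and 3 of their 32 windows held a match (9.38%), in Dkk1, Wnt11 and Wnt5b. The windows of Lgr4 and Wnt2, whose ratios passed for fasting in both genotypes (with the limits on Wnt2 given above), and those of Wnt5b and Wnt11 with their match in capitals are shown 5′ to 3′ on the strand of the gene; Wnt5b has 3 windows and Wnt11 has 2, and the 1 with the match is given.
Lgr4, chr2:109917397-109917646, plus strand: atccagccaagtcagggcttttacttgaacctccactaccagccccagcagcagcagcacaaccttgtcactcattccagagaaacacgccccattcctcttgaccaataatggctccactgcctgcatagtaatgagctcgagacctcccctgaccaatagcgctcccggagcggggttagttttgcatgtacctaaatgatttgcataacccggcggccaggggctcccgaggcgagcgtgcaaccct
Wnt2, chr6:18030446-18030695, minus strand: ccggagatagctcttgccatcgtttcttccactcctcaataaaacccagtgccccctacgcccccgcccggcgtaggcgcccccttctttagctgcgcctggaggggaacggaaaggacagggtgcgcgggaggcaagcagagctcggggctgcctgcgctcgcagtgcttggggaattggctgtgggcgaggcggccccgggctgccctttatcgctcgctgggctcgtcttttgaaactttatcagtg
Wnt5b, chr6:119449387-119449636, minus strand: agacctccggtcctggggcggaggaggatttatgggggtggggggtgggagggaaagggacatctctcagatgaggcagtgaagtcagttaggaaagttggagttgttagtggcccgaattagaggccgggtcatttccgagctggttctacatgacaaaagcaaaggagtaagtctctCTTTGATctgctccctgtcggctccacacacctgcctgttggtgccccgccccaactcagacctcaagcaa
Wnt11, chr7:98834862-98835111, plus strand: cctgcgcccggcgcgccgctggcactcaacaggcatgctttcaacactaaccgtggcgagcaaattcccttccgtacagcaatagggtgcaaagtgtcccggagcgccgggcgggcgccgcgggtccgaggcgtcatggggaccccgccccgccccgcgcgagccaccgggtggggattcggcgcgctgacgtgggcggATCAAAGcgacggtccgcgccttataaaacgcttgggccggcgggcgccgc
The match lies 71 bases before the gene start in Wnt5b and 51 bases in Wnt11, where it reads ATCAAAG on the strand shown. Neither Lgr4 nor Wnt2 holds the letters in this window, and a match or its absence says nothing of where Tcf7l2 binds.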

How the data were processed

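RNA from 22 livers was measured on 2-colour Agilent arrays, 4 or fewer to a slide. The deposited files hold each spot's intensity in both channels, made with Agilent Feature Extraction (10.5.1.1 per the file headers, 8.5.1.1 per the submitters' processing notes). The deposited value table equals the arrays' own log10 ratio of reference over liver, with a largest difference of 0, and was not used further.

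Median signals were corrected with normexp (offset 50), after local backgrounds marked as outliers by the scanner software were replaced by the array's median, and normalized by loess within each array in limma 3.58.1 (R 4.3.3). Outlier spots were set missing, and spots of 1 probe were averaged. The missing value removed 1 newborn wild-type array from the fit of Wnt10a. Probes entered a test when 4 or more newborn arrays, or 3 or more adult arrays, had them well above background in liver, and the brightest probe stood for its gene. Newborn and adult arrays were fitted separately with lmFit and eBayes, with Benjamini-Hochberg adjustment over all genes and a threshold of 0.05. Every log2 change is on the scale of normexp with its offset, which understates changes of dim probes. A channel difference was taken after loess and Aquantile. The liver channel alone means that channel after normexp and quantile normalization between arrays. A fold written as "at least" sets the brighter group's liver signal against, on each array of the dimmer group, the higher of the lowest signal well above background and the probe's own signal. The naming rule took Wnt2, Wnt9b and Rspo3, every member that passed in any comparison, the smallest p of each role in each comparison, and in each role up to 4 members well above background on the most arrays. Other pathway genes that passed are given as counts; Lgr5 and Notum are those that passed for genotype, and Znrf3 was singled out after its values were seen, as were the further members named where groups did not overlap or where a call rested on 1 array. Scripts were tested on simulated data. The members and lists were chosen with earlier results of these data known. Replicate numbers were not treated as pairs in the main fits. Correlations of deviations between newborns of the same number were 0.499, 0.349, 0.390 and -0.232 for numbers 1 to 4. In adults they ran from -0.134 to 0.156.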

Additional observations from a re-analysis of the deposited data

Results flagged for a closer look

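A sample stood apart from the others of its group in 5 of 114 groups examined among the members, where chance alone gives about 1 in 20. Wif1 was 2.97 in newborn knockout 3, against 2.50 to 2.55 in the other newborn knockouts. Newborn wild type 1 was high for Wnt6, at -0.84 against -1.29 to -1.22 in the others, and for Wnt11, at 0.27 against 0.11 to 0.12. Fasted control 3 was high for Wnt6, at -0.51 against -1.20 to -1.13, and for Dkk3, at 0.26 against -0.10 to -0.05. All these values are log2 ratios of liver over reference and were well above background in liver.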

How the results depend on the processing

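Few members cleared background on the fed arrays, and this limits every comparison that uses them. Counting spots significantly above background in place of well above it gave 31 genes in newborn wild types, 13 in fed knockouts and 14 in fed controls, against 20, 5 and 5.

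The newborn count of 0 was 1 with processed signals (Porcn, limma adjusted p = 0.0367), 1 with median centring (Wnt6, limma adjusted p = 0.0355) and 3 with the liver channel alone (Porcn, Wnt1 and Wnt6). Leaving out 1 array gave 0 to 2 in newborns, 0 to 0 in fasted livers, 0 to 1 in fed livers, 7 to 10 for fasting in knockouts, 10 to 14 for fasting in controls and 0 to 0 for the interaction. The fasting counts of 9 in knockouts and 13 in controls were 3 and 5 with outlying local backgrounds kept, and 2 and 3 among genes well above background on every array, an alternative chosen after seeing the data. The replicate number as a block gave 7 and 10, and 0 in each genotype comparison and the interaction. The share of all genes that passed is given for the main settings only, so counts under other settings describe the members alone.

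Signs turned as follows, and the cause was not tested. With outlying local backgrounds kept: newborn Wnt9b 0.036; fasted genotype Wnt5b 0.86, Wnt9b 0.84, Porcn -0.15, Lrp6 -0.021 and Sfrp2 -1.10; fasting in controls Wnt2 -0.86, Wnt4 0.12, Wnt5b -0.64, Porcn 0.0026 and Rspo1 -0.28; interaction Wnt2 2.23, Wnt5b 0.62, Wnt9b 0.68, Lrp5 -0.017, Rspo1 0.59 and Sfrp5 0.0092. With processed signals: fasted genotype Wnt9b 0.012, fed genotype Wnt9b -0.012 and Porcn -0.13; fasting in knockouts Wnt4 0.41, Wnt11 0.40, Porcn 0.50 and Fzd6 0.075, and in controls Wnt4 0.91, Wnt11 0.20, Porcn 0.28, Fzd5 0.50 and Fzd6 0.014; interaction Wnt9b 0.024 and Porcn 0.22. With median centring: fed genotype Porcn -0.13 and Lrp6 -0.19, interaction Porcn 0.17. With the liver channel alone: newborn Wnt9b 0.35; fasted genotype Lrp6 -0.052; fasting in knockouts Porcn 0.18, Fzd6 0.33 and Sfrp2 0.58, and in controls Wnt2 -0.0089, Wnt4 0.18, Wnt5b -0.42, Porcn 0.18, Fzd6 0.16 and Sfrp2 0.39; interaction Wnt2 0.19 and Porcn 0.0034. By slide: fasted genotype Wnt2 -0.22 and Sfrp2 -0.042, fed genotype Porcn -0.078, each within 1 slide, and interaction Porcn 0.022 with slide as a fixed block. Leaving out 1 array gave ranges that cross 0 for newborn Wnt9b (-0.16 to 0.014), fasted genotype Wnt2 (-0.059 to 0.15), fed genotype Wnt9b (-0.062 to 0.37), and the interactions of Porcn (-0.060 to 0.034) and Lrp5 (-0.30 to 0.27).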
